A study of Mus musculus with 16 samples.

Results

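The data describe how strongly each transcript was enriched on tagged ribosomes of prelimbic neurons that reach the nucleus accumbens (PL-NAc), set gene by gene against the same measure for prelimbic neurons that reach the ventral tegmental area (PL-VTA). A gene was included when its mean normalized read count was at least 50 in the authors' deposited tables of both projections, which kept 11981 of 39017 gene rows, or 55.6% of the 21559 genes with a fold change in both. The included genes held 99.4% of the PL-NAc and 99.3% of the PL-VTA mean counts in the authors' deposited tables. All mice were C57BL/6J, an inbred strain, and all carried AAV-IV-GFPL10, which encodes a green fluorescent protein fused to a ribosomal protein, in the prelimbic cortex. Canine adenovirus with Cre (CAV-Cre) was placed in the accumbens for PL-NAc and in the VTA for PL-VTA, and in the basolateral amygdala for the PL-BLA libraries that are used below for reference. Beads with an antibody to GFP captured the tagged polysomes (IP), and the comparison sample was total RNA of the surrounding tissue (Input). PL-NAc had 3 IP and 3 Input libraries, PL-VTA had 2 and 2, and PL-BLA had 3 and 3, with no library shared between projections. The sources used here do not give age, sex, the promoter of the tagged ribosome, the number of animals behind each library or whether libraries came from separate animals, so p-values measure only the spread between these libraries, which may be technical.

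The prelimbic cortex is a medial prefrontal area whose deep layers send long axons out of the cortex. Layer 5 holds a pair of well known excitatory classes: intratelencephalic neurons, whose axons stay within the forebrain and reach cortex, striatum and amygdala, and extratelencephalic neurons, whose axons run to the midbrain, brainstem or spinal cord. The transcription factors Fezf2 and Bcl11b (also called CTIP2) are known for specifying the extratelencephalic class, and a neuron of that class can also branch into the striatum. In ribosome affinity purification, mRNA bound to tagged ribosomes is compared with the tissue around it, so a transcript falls below Input where other cells of the tissue hold more of it or where it is not on cytosolic ribosomes, as in the nucleus or mitochondria.

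Enrichment below means the log2 ratio of IP over Input in the authors' deposited tables, and the difference is PL-NAc minus PL-VTA, so a positive difference marks a gene more enriched in PL-NAc. The headers do not name the direction of the ratio. It was read as IP over Input because glial transcripts were negative, 56 of 57 glial list genes in PL-NAc and 53 in PL-VTA in the authors' deposited tables, so their position below 0 is no finding. The median standard error (SE) of the log2 ratio over the included genes was 0.12 in PL-NAc and 0.22 in PL-VTA in the authors' deposited tables. Because the deposited ratios appear to be shrunken toward 0, the SE has a ceiling: in PL-VTA the largest was 0.451, and for 293 included genes it reached at least 90% of that, where shrinkage weighs most. Against the neuronal markers of the cell types, the PL-NAc IP read as excitatory neurons. The excitatory markers Slc17a7, Neurod6 and Camk2a lay at or above 0.17, and the 5 inhibitory markers at or below -1.24, in the authors' deposited table. The 5 astrocyte, 4 oligodendrocyte and 5 microglial markers also lay at or below -1.24, which follows from how the direction was read. Of the excitatory markers in PL-VTA, Slc17a7 lay at 0.16, while Neurod6 lay at -0.82 and Camk2a at -0.37, in the authors' deposited table. The endothelial markers Cldn5, Flt1 and Pecam1 were not among the included genes.

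The enrichment differed for 464 included genes, 3.87% of them, by a two-sided Wald z test of the difference with Benjamini-Hochberg adjustment over 21559 genes and an adjusted p under 0.05. PL-NAc was higher for 199 genes (1.66%) and PL-VTA for 265 (2.21%), and 111 and 142 of these differed by at least 1 on the log2 scale. Without adjustment, 600 (5.01%) and 820 (6.84%) had a p under 0.05. The median difference was 1.03 among the genes higher in PL-NAc, -1.05 among those higher in PL-VTA and -0.03 over all included genes. Of the included genes 81.7% had the same sign in both projections, and across genes, which are not replicates, the enrichments had a Pearson correlation of 0.84. At the median combined SE of 0.25 a difference had to reach 0.81 to be called, so smaller differences were mostly not detectable. With so few libraries the normal reference matters: on a t reference with 6 degrees of freedom no gene passed, the smallest adjusted p was 0.0938, and 386 and 517 genes had an unadjusted p under 0.05. PL-NAc enrichments were spread wider than those of PL-VTA by 1.21 times, and rescaling PL-VTA to the same spread left 199 genes higher in PL-NAc and 176 higher in PL-VTA.

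**Figure D1:**
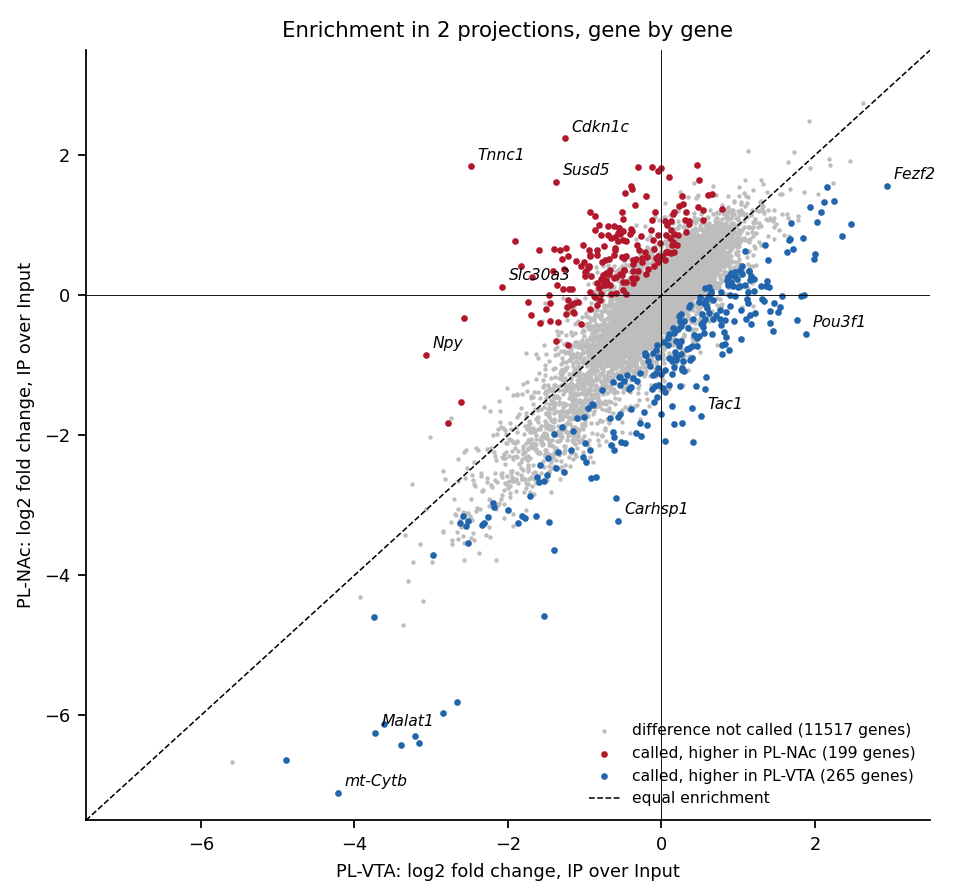
Log2 IP over Input of each included gene in PL-VTA (horizontal axis) and PL-NAc (vertical axis), from the authors' deposited tables; red points are the 199 genes called higher in PL-NAc, blue points the 265 called higher in PL-VTA, and grey points the genes not called. Most points follow the dashed line of equal enrichment, Tnnc1 and Cdkn1c stand above it, and mitochondrial transcripts form a group at the lower left where both projections are below Input.

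Most of the included markers of layer 5 extratelencephalic neurons were called more enriched in PL-VTA. Of 26 listed markers 19 were included, and 13 of these were called higher in PL-VTA against 1 higher in PL-NAc, with a median difference of -0.98. Among all included genes 2.21% were called higher in PL-VTA and 1.66% higher in PL-NAc. In the authors' deposited tables the median enrichment of these 19 genes was 1.31 in PL-VTA, -0.01 in PL-NAc and -0.25 in PL-BLA. The POU-domain transcription factor gene Pou3f1 (ENSMUSG00000090125, chromosome 4, 124656807 to 124660655, GRCm38) had the largest difference of the list: enrichment was -0.55 (SE 0.11) in PL-NAc and 1.89 (SE 0.14) in PL-VTA in the authors' deposited tables, a difference of -2.44 (SE 0.18) with an adjusted Wald p of 5e-37. Pou3f1 was thus below Input in PL-NAc and above it in PL-VTA, and its rebuilt IP level was 48.7 ppm in PL-NAc and 270 in PL-VTA against Input levels of 71.2 and 72.8. Rebuilt levels are computed from each deposited mean and fold change as parts per 1000000 of the summed means (ppm), and the tables were normalized separately. Fezf2, the zinc finger gene named above, was above Input in both, at 1.57 (SE 0.08) in PL-NAc and 2.94 (SE 0.15) in PL-VTA in the authors' deposited tables, a difference of -1.37 (SE 0.17). Its partner in the class, Bcl11b, lay on opposite sides of Input, at -0.28 (SE 0.09) in PL-NAc and 1.16 (SE 0.14) in PL-VTA in the authors' deposited tables, and differed by -1.44 (SE 0.17).

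Tcerg1l, a relative of a transcription elongation regulator, sat at Input level in PL-NAc, -0.01 (SE 0.14), and at 1.81 (SE 0.21) in PL-VTA in the authors' deposited tables, a difference of -1.82 (SE 0.25). Its rebuilt IP level was 23.1 ppm in PL-NAc and 89.1 in PL-VTA. The other called members of the list, named here after their values were seen, were Fam84b with a difference of -1.58, the natriuretic peptide clearance receptor gene Npr3 with -1.58, the sulfotransferase gene Chst8 with -1.44, Parm1 with -1.37, the repressor gene Bcl6 with -1.34, the heavy neurofilament gene Nefh with -0.98, the potassium channel subunit gene Kcng1 with -0.79, the LIM cofactor gene Ldb2 with -0.63 and the thyroid hormone-binding protein gene Crym with -0.62. All 13 extratelencephalic markers called higher in PL-VTA were above Input there, from 0.42 for Nefh to 2.94 for Fezf2, in the authors' deposited table. Fezf2, Crym, Kcng1, Chst8 and Ldb2 were also above Input in PL-NAc, between 0.72 and 1.57, in the authors' deposited table, so for these genes the projections differed in degree. Not called were Vat1l with a difference of -0.57, S100b with -0.29, Crhbp with 0.10, Trib2 with 0.46 and Sulf1 with 0.76.

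**Figure D2:**
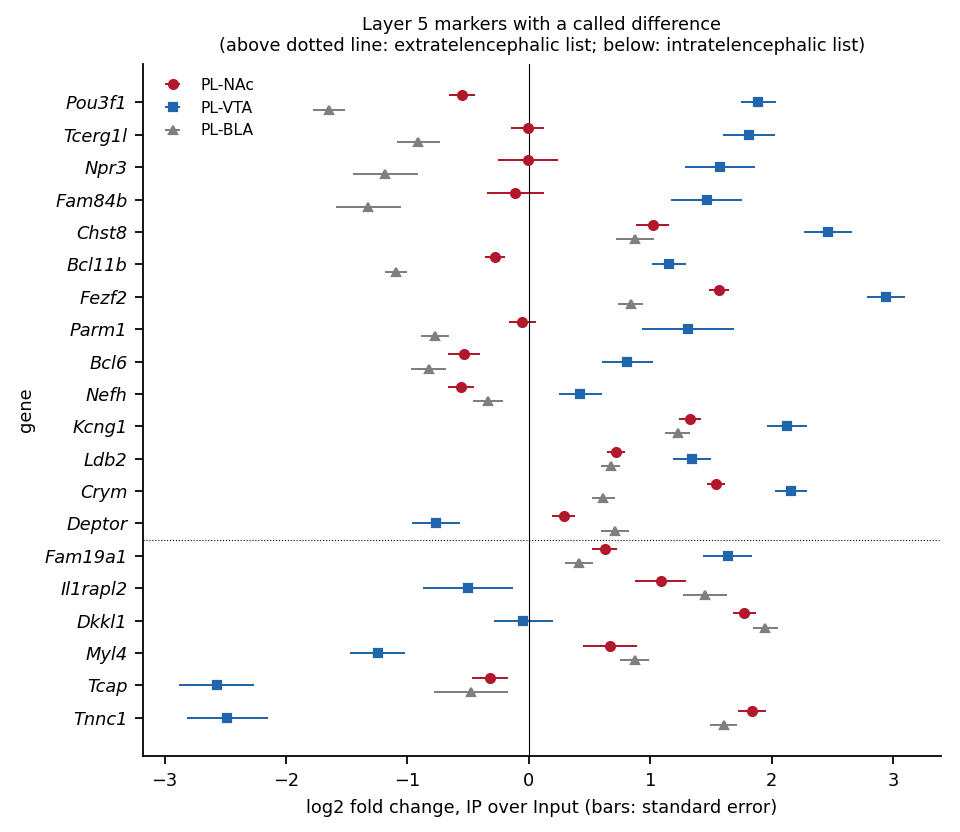
Log2 IP over Input with its SE (bars) for the layer 5 markers with a called difference, from the authors' deposited tables of PL-NAc (red circles), PL-VTA (blue squares) and PL-BLA (grey triangles). Above the dotted line the blue squares lie to the right of the red circles for every gene but Deptor, and below it to the left for every gene but Fam19a1.

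Markers of layer 5 intratelencephalic neurons split. Of 18 listed markers 16 were included, 6 were called higher in PL-NAc and 1 in PL-VTA, and the median difference was 0.06 because the other 9 lay between -0.44 and 0.67. The shares of all included genes so called were 1.66% and 2.21%. Tnnc1, the slow and cardiac form of the calcium-binding protein troponin C (ENSMUSG00000091898, chromosome 14, 31208312 to 31211729, GRCm38), had the largest positive difference of all included genes. Its enrichment was 1.84 (SE 0.11) in PL-NAc, 1.60 in PL-BLA and -2.48 (SE 0.33) in PL-VTA in the authors' deposited tables, a difference of 4.32 (SE 0.35), or 20.0-fold, with an adjusted Wald p of 6.5e-31. The rebuilt IP level of Tnnc1 was 70.2 ppm in PL-NAc and 2.87 in PL-VTA, while Input held 19.6 and 16.1. Dkkl1, a dickkopf-like gene, was 1.77 (SE 0.10) in PL-NAc and -0.05 (SE 0.24) in PL-VTA in the authors' deposited tables, a difference of 1.82 (SE 0.26). Myl4, a myosin light chain gene, was 0.67 (SE 0.22) and -1.25 (SE 0.23) in the authors' deposited tables, a difference of 1.91 (SE 0.32). Tcap, which encodes the titin cap protein telethonin, was below Input in both, at -0.32 (SE 0.15) and -2.57 (SE 0.31) in the authors' deposited tables, and differed by 2.25 (SE 0.34). Il1rapl2 with 1.59 and the mTOR inhibitor gene Deptor with 1.05, which is on both layer 5 lists, completed the genes higher in PL-NAc, and Fam19a1, a secreted protein gene, was higher in PL-VTA with -1.01. Etv1, S100a10 and Rorb, other markers of this list, had differences of -0.44, -0.06 and 0.67 and were not called.

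To show the sequence in front of genes that moved with these classes, 4 upstream windows are printed. They belong to the members of the layer 5 and excitatory lists with the largest called differences in each direction whose 250 bases before the RefSeq start touch no annotated exon. They are given on the strand of the gene, from RefSeq on GRCm38.p6, in lower case with each CANNTG (the E-box letters that basic helix-loop-helix factors such as Neurod6 bind) in capitals. Tnnc1 (chr14:31208062-31208311, plus strand) and Neurod6 (chr6:55681264-55681513, minus strand) were higher in PL-NAc, and Tcerg1l (chr7:138397731-138397980, minus strand) and Chst8 (chr7:34812712-34812961, minus strand) were higher in PL-VTA.
Tnnc1: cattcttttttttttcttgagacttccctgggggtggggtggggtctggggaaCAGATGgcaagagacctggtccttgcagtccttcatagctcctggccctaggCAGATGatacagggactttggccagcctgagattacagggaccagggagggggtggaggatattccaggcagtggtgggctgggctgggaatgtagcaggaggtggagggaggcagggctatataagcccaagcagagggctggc
Neurod6: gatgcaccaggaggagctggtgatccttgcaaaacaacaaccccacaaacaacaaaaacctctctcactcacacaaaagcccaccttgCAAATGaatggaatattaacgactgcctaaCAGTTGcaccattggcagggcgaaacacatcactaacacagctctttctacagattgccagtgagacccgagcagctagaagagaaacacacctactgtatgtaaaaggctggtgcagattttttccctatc
Tcerg1l: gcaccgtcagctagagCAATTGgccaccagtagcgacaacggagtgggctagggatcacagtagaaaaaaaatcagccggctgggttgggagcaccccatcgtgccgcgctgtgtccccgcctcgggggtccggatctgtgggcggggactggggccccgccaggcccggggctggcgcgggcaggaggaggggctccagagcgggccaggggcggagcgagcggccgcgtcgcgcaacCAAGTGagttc
Chst8: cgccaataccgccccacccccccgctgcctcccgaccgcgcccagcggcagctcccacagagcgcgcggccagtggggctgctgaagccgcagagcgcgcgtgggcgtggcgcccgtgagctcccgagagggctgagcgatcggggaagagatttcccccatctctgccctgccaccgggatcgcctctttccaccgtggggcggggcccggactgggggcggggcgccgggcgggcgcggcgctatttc
The windows of Tnnc1, Neurod6 and Tcerg1l each hold 2 CANNTG matches and that of Chst8 holds 0, while GGGCGG, read on both strands, occurs 2 times for Tcerg1l and 4 times for Chst8 and not in the others. A match is a run of letters, not a bound site. RefSeq promoters were matched by symbol for 141 of 199 genes higher in PL-NAc (185 promoters) and 189 of 265 higher in PL-VTA (279 promoters). CANNTG was in 58.9% of the former, 55.6% of the latter, 57.1% of the promoters of included genes and 66.2% of all 32851 promoters. GGGCGG was in 59.5%, 50.2%, 57.8% and 32.7% in the same order, the cyclic AMP element letters TGACGTCA in 1.62%, 1.43%, 2.74% and 1.55%, and TATAAA in 4.86%, 9.68%, 6.04% and 12.4%. CANNTG and TGACGTCA can share their outer letters, and the median GC content was 62%, 58.4%, 60.4% and 52.4% in the same order.

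General markers of excitatory neurons were called in 1 direction only, 6 of 16 higher in PL-NAc. All 16 listed genes were included, 0 were higher in PL-VTA, with a median difference of 0.28, and at an unadjusted p under 0.05 the counts were 8 and 1. Of all included genes 1.66% were called higher in PL-NAc and 2.21% higher in PL-VTA, so 0 in PL-VTA is near its share. The unadjusted shares were 5.01% and 6.84%. Neurod6, a basic helix-loop-helix factor of differentiated cortical excitatory neurons, was 0.999 (SE 0.07) in PL-NAc, 1.34 in PL-BLA and -0.82 (SE 0.15) in PL-VTA in the authors' deposited tables, a difference of 1.82 (SE 0.16) with an adjusted Wald p of 1.4e-25. Its rebuilt IP level was 382 ppm in PL-NAc and 97.6 in PL-VTA, with Input at 191 and 172. Cck, the cholecystokinin gene, differed by 1.42 (SE 0.18), the neuronal pentraxin gene Nptx1 by 1.01 (SE 0.18) and Camk2a, the alpha subunit of a calcium and calmodulin kinase, by 0.54 (SE 0.15). Differences were also called for the cortical transcription factor gene Tbr1, 0.61 (SE 0.18), and for the vesicular glutamate transporter gene Slc17a7, 0.46 (SE 0.13). Slc30a3, which encodes the vesicular zinc transporter and is on no list, was near Input in PL-NAc, 0.12 (SE 0.08), and far below it in PL-VTA, -2.07 (SE 0.16), in the authors' deposited tables, a difference of 2.19 (SE 0.18).

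Layer 6 and upper-layer markers were called in both directions, 5 of 17 and 4 of 20 where 3.87% of all included genes were called. Of 17 included layer 6 and 6b markers 4 were higher in PL-NAc, namely Ccdc80 with 1.53 (SE 0.39), the complexin gene Cplx3 with 1.34 (SE 0.27), Rprm with 1.24 (SE 0.35) and Tbr1, and Crym, which is also on the extratelencephalic list, was higher in PL-VTA. The median difference of that list was 0.18. Of 20 upper-layer and callosal markers 1 was higher in PL-NAc, the LIM-only factor gene Lmo4 with 1.31 (SE 0.16), and 3 were higher in PL-VTA, the lysosome-associated membrane protein gene Lamp5 with -1.20 (SE 0.16), the T-type calcium channel gene Cacna1h with -1.23 (SE 0.30) and the adhesion gene Mdga1 with -1.12 (SE 0.32). The median difference there was 0.01. In the authors' deposited tables Lamp5 was -0.42 in PL-NAc and 0.77 in PL-VTA, and Lmo4 was 0.92 and -0.38, so each lay on opposite sides of Input.

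Transcription factors of projection neurons were called in both directions, 5 of 42 higher in PL-NAc and 9 higher in PL-VTA, with a median difference of -0.04. Over all included genes 1.66% were called higher in PL-NAc and 2.21% higher in PL-VTA. Besides Pou3f1, Bcl11b, Fezf2 and Ldb2, the homeobox gene Pbx3 was higher in PL-VTA: it was -1.82 (SE 0.14) in PL-NAc and -0.28 (SE 0.23) in PL-VTA in the authors' deposited tables, a difference of -1.55 (SE 0.26). The other factors higher in PL-VTA, named after their values were seen, were Bhlhe40 with -0.89, Meis2 with -0.75, Etv5 with -0.66 and Nfib with -0.65. The 5 higher in PL-NAc included Tbr1 and, also from the list of immediate early genes, Egr1 and Nr4a1. The others were Nr2f1 (COUP-TFI, a regional identity factor of the cortex) with 1.20 and the LIM-homeobox gene Lhx2 with 0.75, likewise named after their values were seen.

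Several genes with the largest positive differences are on no list. Cdkn1c, the cyclin-dependent kinase inhibitor p57, was 2.24 (SE 0.13) in PL-NAc and -1.26 (SE 0.35) in PL-VTA in the authors' deposited tables, a difference of 3.50 (SE 0.37), or 11.3-fold. Its rebuilt IP level was 57.8 ppm in PL-NAc and 4.71 in PL-VTA, with Input at 12.2 and 11.3. Susd5, a sushi-domain gene, was 1.62 (SE 0.17) and -1.37 (SE 0.39) in the authors' deposited tables, a difference of 2.99 (SE 0.43), and the cytokine subunit gene Il12a differed by 2.68 (SE 0.46). Then came Car4, a membrane-anchored carbonic anhydrase, with 2.25, the BCL2-family gene Bok with 2.24, the anion exchanger gene Slc26a4 with 2.14, Usp43, a deubiquitinase gene, with 2.12, the Ras-like gene Rasl10a with 2.07, Tbata with 2.01, the matrix gene Smoc2 with 1.97 and Trbc2 with 1.96. For Il12a, Slc26a4, Usp43 and Tbata the SE in PL-VTA was over 90% of its ceiling in the authors' deposited table. Of the 15 largest positive differences 11 held their call in each of 7 other settings, the t reference left aside, whereas 2 of the 15 largest negative ones did, Pou3f1 and the predicted gene Gm9791, which differed by -2.31 (SE 0.51).

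Neuropeptide genes were called in both directions, with 5 of 21 included genes higher in PL-NAc and 4 higher in PL-VTA. Among all included genes the shares were 1.66% and 2.21%. Npy, the neuropeptide Y gene, was below Input in both but less so in PL-NAc, at -0.85 (SE 0.08) against -3.07 (SE 0.17) in the authors' deposited tables, a difference of 2.22 (SE 0.19). Sst, the somatostatin gene, was 0.26 (SE 0.09) in PL-NAc and -1.69 (SE 0.19) in PL-VTA in the authors' deposited tables, a difference of 1.95 (SE 0.21), and in PL-BLA it was -0.53. The rebuilt IP level of Sst was 153 ppm in PL-NAc and 48.6 in PL-VTA, and that of Npy 95.8 and 23.9. Cck was described above, and the Wnt agonist gene Rspo2 with 1.59 and Nxph3 with 1.05 were also higher in PL-NAc. In the other direction, Tac1, which encodes substance P, differed by -2.24 (SE 0.47) and the prodynorphin gene Pdyn by -1.81 (SE 0.41), followed by Adcyap1, which encodes PACAP, with -0.89 and the secretogranin gene Scg2 with -0.53. Adcyap1 was above Input in both, at 1.19 in PL-NAc and 2.08 in PL-VTA in the authors' deposited tables.

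As Npy and Sst are also markers of interneurons, the rest of the inhibitory list is given beside them. Of 27 included inhibitory markers 22 were called below Input in PL-NAc and 21 in PL-VTA in the authors' deposited tables, at their adjusted p under 0.05. By the difference, 4 were higher in PL-NAc (Npy, Sst, Cck and the cannabinoid receptor gene Cnr1, with 0.84). Another 4 were higher in PL-VTA (the calretinin gene Calb2 with -2.24, Dlx5 with -1.74, Reln with -1.09 and Gad1 with -0.61). Among all included genes 1.66% were called higher in PL-NAc and 2.21% higher in PL-VTA. The median difference of the list was -0.44 as deposited and 0.44 with the shrinkage undone. In the undone setting 4 were higher in PL-NAc and 1 in PL-VTA, and 2 genes had no value because of their SE in PL-VTA. The summed mean level of the markers Gad1, Gad2, Slc32a1, Pvalb and Vip was 577 ppm in the PL-NAc table and 611 in the PL-VTA table. Whether interneuron RNA in the IP has a part in the differences of Npy and Sst was not tested. In such pooled material, fewer cells of a type and less RNA per cell cannot be told apart.

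Receptor genes were called in both directions, where 1.66% of all included genes were called higher in PL-NAc and 2.21% higher in PL-VTA. Of 47 included genes for monoamine, acetylcholine and peptide receptors, the adrenergic receptor gene Adra1b (1.03, SE 0.27) and Cnr1 were higher in PL-NAc, and Npr3 and the melanocortin receptor gene Mc4r (-1.51, SE 0.39) were higher in PL-VTA. Mc4r was above Input in both projections, at 0.85 (SE 0.27) in PL-NAc and 2.36 (SE 0.29) in PL-VTA in the authors' deposited tables, and below it in PL-BLA, at -0.89. Of 40 glutamate receptor and scaffold genes 3 were higher in PL-NAc: the neuronal pentraxin receptor gene Nptxr with 1.52 (SE 0.16), its ligand gene Nptx1, and the AMPA receptor subunit gene Gria4 with 0.84 (SE 0.22). The kainate receptor subunit gene Grik2 was higher in PL-VTA with -0.90 (SE 0.26). Nptxr lay on opposite sides of Input, at 0.58 in PL-NAc and -0.93 in PL-VTA in the authors' deposited tables, and its rebuilt IP level was 804 ppm against 274.

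Of 69 included ion channel genes 10 were called higher in PL-VTA and 2 higher in PL-NAc, with a median difference of -0.08. The shares over all included genes were 2.21% and 1.66% in that order. The small-conductance potassium channel gene Kcnn2 was -0.25 (SE 0.13) in PL-NAc and 1.22 (SE 0.19) in PL-VTA in the authors' deposited tables, a difference of -1.47 (SE 0.23). Scn4b, a sodium channel beta subunit gene, differed by -2.13 (SE 0.42), the sodium channel gene Scn1a by -1.12 (SE 0.20) and the calcium channel subunit gene Cacna2d3 by -0.99 (SE 0.19). Cacna1h, Kcng1, Kcna1, Kcnip1 and Kcnab3 were also among them, the last 3 with -0.63, -0.73 and -0.73. The silent potassium channel subunit gene Kcnv1, with 0.94 (SE 0.18), and Kcnh1, with 0.88, were higher in PL-NAc.

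Axonal genes were called mainly in the same direction. For comparison, 2.21% of all included genes were called higher in PL-VTA and 1.66% higher in PL-NAc. Of 28 neurofilament and axonal cytoskeleton genes 4 were higher in PL-VTA, the intermediate filament genes Nefm with -0.98 (SE 0.15), Nefh with -0.98 (SE 0.21), Ina with -0.67 (SE 0.15) and Nefl with -0.66 (SE 0.14), and Fxyd7, a regulator of the sodium pump, was higher in PL-NAc with 1.01 (SE 0.19). The rebuilt IP level of Nefl was 571 ppm in PL-NAc and 854 in PL-VTA, with Input at 614 and 581. Of 89 guidance and adhesion genes 8 were higher in PL-VTA and 2 in PL-NAc, with a median difference of -0.18. They included Lypd1 with -1.41 (SE 0.23), the ephrin receptor gene Ephb1 with -1.13 (SE 0.25), the protocadherin gene Pcdh8 with -0.97 (SE 0.20) and the cadherin gene Cdh13 with -0.91 (SE 0.16), and Robo1, a receptor for Slit guidance cues, with -1.45. Cdh8, Cntnap2 and Pcdh17 followed with -0.89, -0.88 and -0.75, while Cdh10 with 1.06 and Nxph3 were higher in PL-NAc.

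Genes of the presynapse and of intracellular signalling were called in both directions. Beside them, 1.66% of all included genes were called higher in PL-NAc and 2.21% higher in PL-VTA. Of 38 presynaptic genes 5 were higher in PL-NAc: Cplx3, the release machinery genes Rims3 with 0.97 (SE 0.17) and Stx1a with 0.95 (SE 0.14), and the synapsin genes Syn2 with 0.82 (SE 0.14) and Syn1 with 0.47. The 5 higher in PL-VTA were Unc13c with -1.72, Syt2 with -1.41, the complexin gene Cplx1 with -0.98 (SE 0.16), Rab3c with -0.79 and Vamp1 with -0.59. The complexin paralogs thus differed in opposite directions, with Cplx3 at 0.35 in PL-NAc and -0.99 in PL-VTA and Cplx1 at -0.81 and 0.18 in the authors' deposited tables. Of 70 calcium, cyclic AMP and kinase genes 6 were higher in PL-NAc, led by the neuronal calcium sensor gene Ncald with 1.56 (SE 0.15), the kinase gene Camk2d with 1.37 (SE 0.21) and the kinase inhibitor gene Camk2n2 with 1.32 (SE 0.22), and 5 were higher in PL-VTA. Ncald was among the most abundant of these, with a rebuilt IP level of 1777 ppm in PL-NAc and 579 in PL-VTA and Input at 981 and 942.

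Immediate early genes, which neurons transcribe within minutes of activity, were called in 1 direction only: 7 of 23 were higher in PL-NAc and 0 in PL-VTA, 11 and 0 at an unadjusted p under 0.05, and the median difference was 0.43. Among all included genes 1.66% and 2.21% were called in that order, so 0 in PL-VTA is near its share. At an unadjusted p under 0.05 the shares were 5.01% and 6.84%. Nptx2 differed by 1.51 (SE 0.26), Fos by 1.28 (SE 0.21), Arc by 1.19 (SE 0.19) and Junb by 0.93 (SE 0.17), and Ier2, Egr1 and Nr4a1 by 1.02, 0.62 and 0.58. In the authors' deposited tables Fos was 0.87 (SE 0.08) in PL-NAc and -0.41 (SE 0.20) in PL-VTA. Input also moved with this list: its median log2 ratio of rebuilt Input levels, PL-NAc over PL-VTA, was 0.41, and the rebuilt Input level of Arc was 488 ppm in PL-NAc and 286 in PL-VTA. The part of this in the result was not tested. Of 23 included stress genes 2 were called higher in PL-NAc and 2 higher in PL-VTA. The cell cycle inhibitor gene Cdkn1a with 1.45 (SE 0.25) and Gadd45a with 1.44 (SE 0.39) were higher in PL-NAc. The glucocorticoid-induced gene Tsc22d3 with -0.62 (SE 0.15) and the mineralocorticoid receptor gene Nr3c2 with -1.22 (SE 0.33) were higher in PL-VTA.

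**Figure D3:**
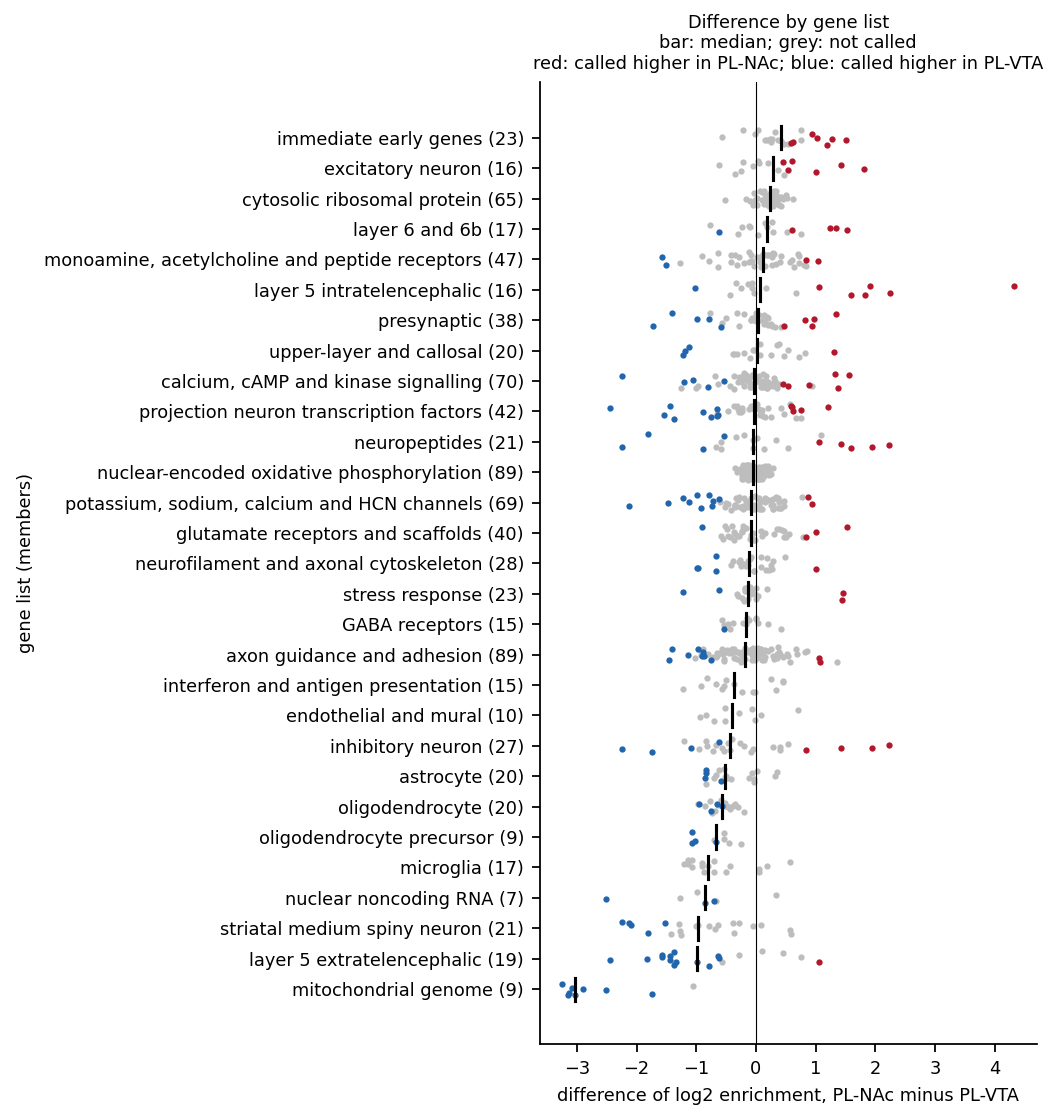
Difference in log2 enrichment, PL-NAc minus PL-VTA, of every included gene of 29 lists, with the number of included genes in brackets and a bar at each list's median; red and blue points are genes called higher in PL-NAc and PL-VTA. The median was highest for immediate early genes, 0.43, and lowest for the mitochondrial genome, -3.02.

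Transcripts of glia, nucleus and mitochondria were below Input in both projections by median, and on the deposited values every called difference among them was toward less depletion in PL-VTA. The median difference was -0.52 for 20 astrocyte, -0.57 for 20 oligodendrocyte, -0.68 for 9 oligodendrocyte precursor and -0.81 for 17 microglial genes, and 4, 4, 4 and 0 of them were called higher in PL-VTA, with 0 higher in PL-NAc. Of all included genes 2.21% were called higher in PL-VTA and 1.66% higher in PL-NAc. With the shrinkage undone the medians were -0.36, -0.28, -0.59 and -0.15, with 2, 3, 1 and 1 genes higher in PL-VTA and 1, 0, 0 and 4 higher in PL-NAc. On the deposited values without adjustment, 8 microglial genes were higher in PL-VTA and 0 in PL-NAc at a p under 0.05. Mobp, a myelin-associated protein gene, was -3.16 (SE 0.08) in PL-NAc and -2.59 (SE 0.14) in PL-VTA in the authors' deposited tables, a difference of -0.57 (SE 0.16), and Gja1, an astrocyte gap junction gene, differed by -0.85 (SE 0.22). Of 9 transcripts of the mitochondrial genome 8 were called higher in PL-VTA, with a median difference of -3.02, led by mt-Nd4, a subunit of respiratory complex I, at -6.40 (SE 0.14) in PL-NAc and -3.16 (SE 0.38) in PL-VTA in the authors' deposited tables. The SE of these 9 transcripts in PL-VTA was 53.7% to 96.9% of its ceiling in the authors' deposited table, and with the shrinkage undone the difference changed sign for mt-Nd1, mt-Nd4, mt-Nd5, mt-Cytb, mt-Co1 and mt-Rnr1, moved to -2.35 for mt-Rnr2 and had no value for mt-Nd2 and mt-Nd6, so its direction depends on the treatment of PL-VTA. The same holds for Malat1, a nuclear noncoding RNA, which differed by -2.52 (SE 0.43) as deposited. The nuclear RNAs Meg3 and Snhg11 differed by -0.86 (SE 0.19) and -0.71 (SE 0.19). After PL-VTA was rescaled so that glial genes matched, a factor of 1.36, the medians became 0.04 for astrocyte and 0.08 for oligodendrocyte genes, the differences of Meg3, Snhg11 and Mobp turned positive, and 183 and 189 genes were called higher in PL-NAc and PL-VTA.

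Other large negative differences rest on a PL-VTA value near the ceiling of its SE. Carhsp1, a gene for an RNA-binding protein, was -3.23 (SE 0.12) in PL-NAc and -0.57 (SE 0.45) in PL-VTA in the authors' deposited tables, a difference of -2.66 (SE 0.47), and Cdr1 differed by -3.04 (SE 0.47). The libraries do not mark strand, so reads of Cdr1 and of its antisense RNA cannot be told apart. For mt-Nd5 and mt-Nd6 this holds only from base 13552 to base 13565, where their annotated positions overlap on opposite strands. Calb2 belongs to the same group, with an SE of 0.44 in PL-VTA in the authors' deposited table. With the shrinkage undone the genes higher in PL-NAc numbered 395 (3.3% of the included genes) and those higher in PL-VTA 310 (2.59%). Of the genes called on the deposited values, 188 of 199 and 202 of 265 kept their call, 6 and 12 had no value because the SE was over 90% of the ceiling, and 0 and 8 changed sign.

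**Figure D4:**
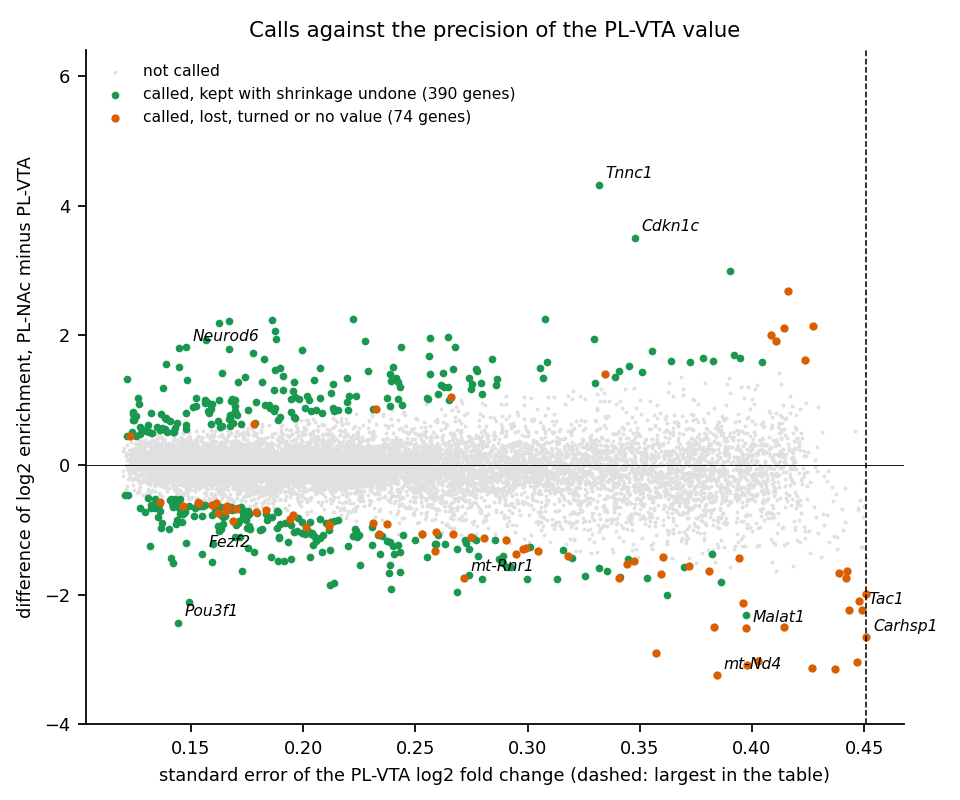
Difference of each included gene (vertical axis, log2, PL-NAc minus PL-VTA) against the SE of its PL-VTA value in the authors' deposited table (horizontal axis), with the largest SE of the table as a dashed line. Green points are the 390 called genes that kept their call with the shrinkage undone; the 74 that did not (orange) lie mostly at negative differences, and those nearest the dashed line include Carhsp1 and Tac1.

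Genes of striatal medium spiny neurons formed a group of their own. Of 21 included genes 5 were called higher in PL-VTA and 0 in PL-NAc, 11 and 0 at an unadjusted p under 0.05, and the median difference was -0.96. The shares of all included genes were 2.21% and 1.66% called, and 6.84% and 5.01% unadjusted, in that order. With the shrinkage undone 11 of the 21 genes had no value. Among the rest 2 were higher in PL-VTA and 1 in PL-NAc, with a median of -0.48, which is not for the same set as -0.96. Gng7, a G protein gamma subunit gene, was -0.69 (SE 0.08) in PL-NAc and 0.83 (SE 0.14) in PL-VTA in the authors' deposited tables, a difference of -1.52 (SE 0.16) that held in 7 other settings, though not on the t reference. Scn4b, Tac1, Pdyn and Syndig1l were the other called genes, Syndig1l with -2.09 (SE 0.47). For 11 of the 21 genes the SE in PL-VTA was at least 90% of its ceiling in the authors' deposited table. These transcripts were also more abundant in the PL-VTA libraries as a whole: the summed mean level of the markers Ppp1r1b, Drd2, Adora2a and Rgs9 was 317 ppm in the PL-NAc table and 863 in the PL-VTA table, with none of the 4 at 0. The enrichment of these markers differed by -1.26 (SE 0.48) for Ppp1r1b, -1.01 (SE 0.46) for Rgs9, 0.58 (SE 0.43) for Drd2 and 0.58 (SE 0.37) for Adora2a, none of them called. The list's median log2 ratio of rebuilt Input levels was -0.81, PL-NAc over PL-VTA, so Input held more of them too. The part of such RNA in the differences of Tac1, Pdyn, Scn4b and Gng7 was not tested.

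On the deposited values no gene was called on the lists for housekeeping machinery, where the shares over all included genes, 1.66% higher in PL-NAc and 2.21% higher in PL-VTA, would give few. All 65 included ribosomal protein genes were within the test's limit, 58 of them positive with a median of 0.23, and 2 and 0 passed an unadjusted p under 0.05 as higher in PL-NAc and in PL-VTA. Of 89 nuclear-encoded oxidative phosphorylation genes 0 were called, 0 passed an unadjusted p under 0.05, and the median difference was -0.05. The interferon and antigen presentation list (15 genes, 0 called, 4 higher in PL-VTA at an unadjusted p under 0.05) and the endothelial and mural list (10 genes, 0 called, 3 likewise) had medians of -0.37 and -0.40. With the shrinkage undone these medians were -0.0033 and 0.12, and 3 and 1 genes had no value. In that setting 2 genes of the interferon list were called higher in PL-NAc and 1 higher in PL-VTA. In all, 136 of the 464 called genes were on a list.

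For 67 included genes (0.559%) the authors' deposited tables called enrichment in opposite directions, 47 above Input in PL-NAc and below it in PL-VTA and 20 the reverse. The difference was called for all 67, which largely follows from their choice on the same values, and 66 kept it with the shrinkage undone. The background of such calls differs between projections, since 30.9% and 24% of included genes were called higher and lower than Input in PL-NAc but 13.9% and 11.8% in PL-VTA, in the authors' deposited tables. By absolute difference the 10 largest of the 67 were Tnnc1, Cdkn1c, Susd5, Il12a, Pou3f1, Car4, Bok, Rasl10a, Smoc2 and Sst. Of the 199 genes higher in PL-NAc, 143 were called above Input there and 103 called below Input in PL-VTA in the authors' deposited tables. These are the authors' calls at their adjusted p under 0.05, not counts of signs. Of the 265 higher in PL-VTA, 106 were called above Input there and 179 called below Input in PL-NAc. By the same calls 60 were below Input in both, of which 14 kept the called difference with the shrinkage undone.

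On the rebuilt levels the differences lay mostly on the IP side. For genes far below Input in both projections this is partly fixed by the computation. Their rebuilt Input is close to 2 times the mean whatever the ratio, so a difference in ratio appears mainly as IP. The ratios used are the deposited ones, which appear shrunken. For all 199 genes higher in PL-NAc and 263 of 265 higher in PL-VTA the rebuilt IP levels differed more between projections than the rebuilt Input levels. The median log2 IP ratio, PL-NAc over PL-VTA, was 1.06 and -1.07 for the 2 sets, and the median Input ratio 0.01 and -0.06. The exceptions were Mapk8ip2 and Igkc, the immunoglobulin kappa constant gene, whose Input level was 34.7 ppm in PL-NAc and 3.01 in PL-VTA. Input differed over 2-fold for 15 included genes, of which 5 were called: Cd4, Tac1, Syndig1l, Ighg2c and Igkc.

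**Figure D5:**
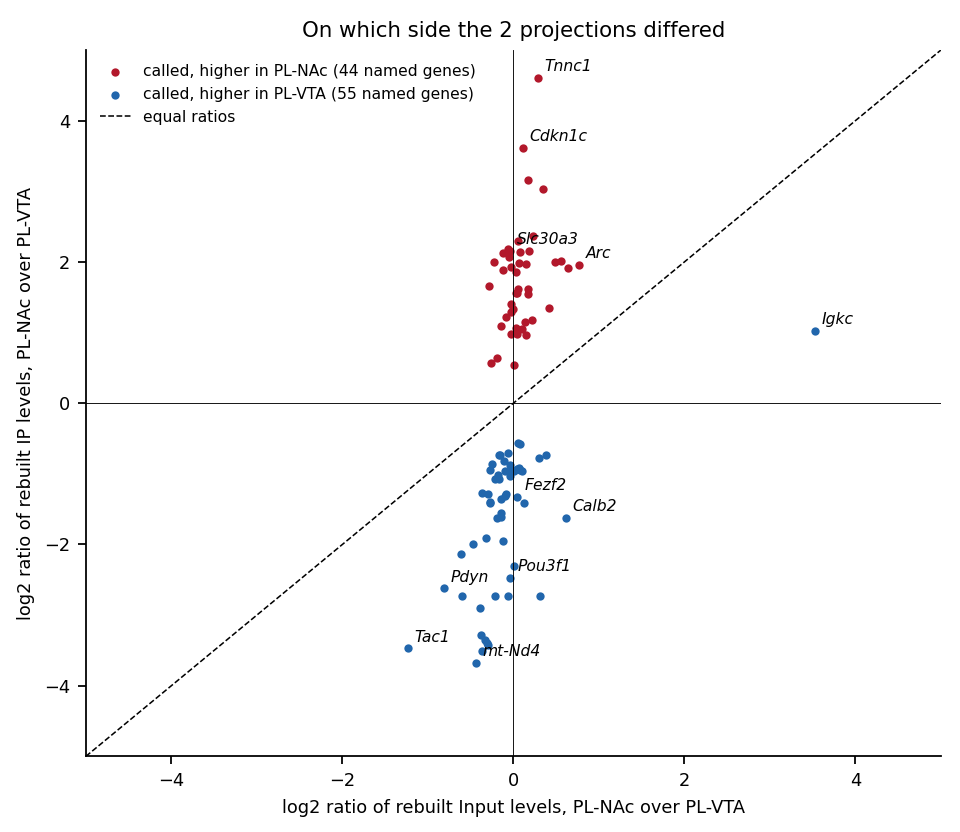
Log2 ratio, PL-NAc over PL-VTA, of the rebuilt Input level (horizontal axis) and IP level (vertical axis) for 44 named genes called higher in PL-NAc (red) and 55 called higher in PL-VTA (blue). Most points lie near 0 on the Input axis and away from 0 on the IP axis; Igkc stands apart at an Input ratio of 3.53.

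PL-BLA, whose libraries entered neither side of the difference, had values for the called genes too. Of the 199 genes higher in PL-NAc, 144 (72.4%) were called above Input in PL-BLA and 20 (10.1%) below it in the authors' deposited table. Of all included genes 29.4% and 22.7% were so called there, at the authors' adjusted p under 0.05. Of the 265 higher in PL-VTA, 23 (8.68%) were called above and 189 (71.3%) called below Input in PL-BLA in the authors' deposited table. The PL-BLA value was nearer to that of PL-NAc for 186 of 199 and 221 of 265 genes, against 59.2% of all included genes. Rprm and Nxph3 did not follow this order: Nxph3, at 1.28 in PL-NAc and 0.22 in PL-VTA, was -0.82 in PL-BLA in the authors' deposited tables. These genes were picked after their values were seen.

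Gene length was not used in the choice of genes. The median length from gene start to end was 22132 bases for genes higher in PL-NAc, 49550 for those higher in PL-VTA and 24540 for the 11897 included genes with an annotated length. Protein-coding genes made up 197 of 199 and 257 of 265. At the threshold on the mean, the included genes nearest to it were Sh3pxd2a, Rhbdl1 and Lst1, with lower means of 50.02, 50.09 and 50.12 and differences of -0.58, 0.42 and 0.90, and the nearest left out were Slfn2, Tmem132c and Ap4e1, with 49.99, 49.99 and 49.96 and differences of -1.05, -0.58 and -0.15, in the authors' deposited tables.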

How the data were processed

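IP and Input RNA was sequenced from libraries made with the SMARTer Ultra Low kit followed by Nextera XT, a chemistry without strand information, per the labels' protocols. The submitters' processing notes name STAR 2.3, featureCounts and DESeq2, and the builds mm10 and GRCm38. Other versions, the annotation, the filters and the model were not stated there. The mean signal of a gene is the authors' mean normalized count over the libraries of 1 projection, per the file headers, and these means summed to 15437849 in PL-NAc and 16520414 in PL-VTA. The log2 fold changes and their standard errors are the authors' deposited values. The test score in the authors' deposited tables equalled fold change over standard error, and their p-value its two-sided normal p. The tables hold 0 columns of per-library values, so the planned count model was not used, nor were libraries left out, and 0 other per-sample columns were unused. The authors' fold changes appear shrunken toward 0, which understates changes of genes with low counts or a wide spread.

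From these values the difference, PL-NAc minus PL-VTA, its standard error (the root of the summed squares), a two-sided Wald z and a Benjamini-Hochberg adjusted p over 21559 genes were computed with Python 3.11.15, numpy 2.4.6, pandas 2.3.3 and scipy 1.17.1, and checked on simulated data. Genes with a mean of at least 50 in both tables were counted, and called at an adjusted p under 0.05. Shrinkage was undone by a normal-prior approximation, with no value where the standard error was at least 90% of the largest. IP and Input levels were rebuilt from mean and fold change. Coordinates and lengths are from GENCODE release M21 on GRCm38, and promoter sequences from RefSeq on GRCm38.p6. Named genes were the 15 largest called differences in each direction, the 10 largest among genes the authors called in opposite directions, the 4 with the smallest p on each of 29 lists and the 3 on each side of the threshold on the mean; further names are marked or stand for completeness of a count. Some genes that stay in each fit and count are not reported here by name. The gene set, lists, rules and tests were chosen with earlier results of these data known, and lists are described, not tested. Alternatives were the mean minimum, the adjustment, the reference distribution, centring, rescaling of PL-VTA, undone shrinkage, larger errors and a minimum difference.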

Additional observations from a re-analysis of the deposited data

Results flagged for a closer look

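The enrichment of 99 named genes differed between the projections by the test of the difference itself, the Wald z with Benjamini-Hochberg adjustment, and each is listed here with its difference in log2 enrichment, PL-NAc minus PL-VTA. The first group kept its call in each of 7 other settings, the t reference left aside. It was higher in PL-NAc for Tnnc1 4.32, Cdkn1c 3.50, Susd5 2.99, Tcap 2.25, Car4 2.25, Bok 2.24, Npy 2.22, Slc30a3 2.19, Rasl10a 2.07, Smoc2 1.97, Trbc2 1.96, Sst 1.95, Myl4 1.91, Dkkl1 1.82, Neurod6 1.82, Ncald 1.56, Nptxr 1.52, Nptx2 1.51, Cdkn1a 1.45, Cck 1.42, Camk2d 1.37, Cplx3 1.34, Camk2n2 1.32, Lmo4 1.31, Fos 1.28, Arc 1.19, Fxyd7 1.01, Nptx1 1.01, Rims3 0.97, Stx1a 0.95, Kcnv1 0.94, Junb 0.93 and Syn2 0.82. It was higher in PL-VTA for Pou3f1 -2.44, Gm9791 -2.31, Tcerg1l -1.82, Npr3 -1.58, Pbx3 -1.55, Gng7 -1.52, Mc4r -1.51, Kcnn2 -1.47, Bcl11b -1.44, Lypd1 -1.41, Fezf2 -1.37, Cacna1h -1.23, Lamp5 -1.20, Ephb1 -1.13, Scn1a -1.12, Cacna2d3 -0.99, Cplx1 -0.98, Nefh -0.98, Nefm -0.98, Pcdh8 -0.97, Cdh13 -0.91 and Nefl -0.66.

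The second group lost its call in at least 1 of those settings or had no value with the shrinkage undone. Higher in PL-NAc in that group were Il12a 2.68, Slc26a4 2.14, Usp43 2.12, Tbata 2.01, Ccdc80 1.53, Gadd45a 1.44, Rprm 1.24, Adra1b 1.03, Cnr1 0.84, Gria4 0.84 and Camk2a 0.54. Higher in PL-VTA were mt-Nd4 -3.24, mt-Nd6 -3.14, mt-Nd2 -3.13, mt-Nd5 -3.08, Cdr1 -3.04, mt-Nd1 -3.02, mt-Cytb -2.90, Carhsp1 -2.66, Malat1 -2.52, Igkc -2.51, mt-Co1 -2.50, Tac1 -2.24, Calb2 -2.24, Scn4b -2.13, Pdyn -1.81, Nr3c2 -1.22, Mdga1 -1.12, Olig2 -1.07, Sox10 -1.06, Olig1 -1.02, Ermn -0.95, Grik2 -0.90, Meg3 -0.86, Gja1 -0.85, S1pr1 -0.84, Gjb6 -0.84, Snhg11 -0.71, Bcan -0.68, Cnp -0.65, Crym -0.62, Tsc22d3 -0.62, Slc1a3 -0.58 and Mobp -0.57. In addition, 67 genes were called in opposite directions against Input in the authors' deposited tables of the 2 projections.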

How the results depend on the processing

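On the deposited values 199 genes were higher in PL-NAc and 265 in PL-VTA. On a t reference with 6 degrees of freedom 0 and 0 were, at a smallest adjusted p of 0.0938, although each of the 199 and 265 had an unadjusted p under 0.05. With the shrinkage undone 395 were higher in PL-NAc and 310 in PL-VTA, with the larger standard error used for both 103 and 120, and with a minimum difference of 1 on the log2 scale 111 and 142. With PL-VTA rescaled by the ratio of spreads and centred, 176 were higher in PL-VTA and 199 in PL-NAc, of which 166 and 174 were among the genes called on the deposited values. The other settings (mean minimum of 10, 200 or none, adjustment over included genes only, centring, glial rescaling, and only genes with an adjusted p in both tables) stayed within 1.5 times, from 171 to 227 and from 189 to 310. A setting chosen after seeing the data, only genes whose standard error was under 90% of the largest in each of the 2 projections, gave 193 and 253. Of 99 named called genes 55 kept their call in each of 7 settings, 11 had no value with the shrinkage undone and 99 lost it on the t reference.

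With the shrinkage undone the difference turned to 4.44 for mt-Nd4, 7.61 for mt-Nd5, 9.38 for mt-Nd1, 3.04 for mt-Cytb, 9.58 for Malat1 and 4.68 for mt-Co1, sizes that this approximation makes unreliable so near the largest standard error. With PL-VTA rescaled by the glial ratio it turned to 0.50 for Meg3, 0.20 for Snhg11 and 0.37 for Mobp, and with the ratio of spreads to 0.0056 for Mobp; the cause was not tested. The median of 15 of 29 lists moved by more than its limit in some setting. No paired analysis was possible because the tables hold no values per library, and leaving out single libraries was not run for the same reason.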
